A study of Homo sapiens with 9 samples.

Results

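ZEB1 binding was compared between 2 clones of MiaPaCa2, a pancreatic ductal adenocarcinoma cell line. The comparison took 2 of the 9 samples of the series and 3675 of the 47426 peaks in its 5 deposited lists, 1515 from the WT clone and 2160 from the delta-Repeat clone. Binding was measured by chromatin immunoprecipitation with sequencing (ChIP-seq), in which DNA bound to ZEB1 in formaldehyde-fixed cells is recovered with an antibody and sequenced. Both clones were isolated by dilution after electroporation of pX330A_D10A-1x2 plasmids, which express a Cas9 nickase. The labels of the delta-Repeat clone name pairs of guide RNAs against the repeats upstream of the MIR200A/B locus, and those of the WT clone name no guides. Each line is a single clone with 1 library, and both used the same lot of ZEB1 antibody, so clone, edit and library cannot be told apart. No test of a difference between the clones is possible with 1 library each, and every value below describes these lists. Unmodified MiaPaCa2 and RKO cells (a colon carcinoma line) served as description, through their ZEB1 lists of 4804 and 7193 peaks and the CTCF list of MiaPaCa2 with 31754.

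ZEB1 is a zinc-finger repressor of epithelial genes that promotes the epithelial-to-mesenchymal transition. It binds E-box elements and recruits co-repressors, and the miR-200 microRNAs are among the genes that it silences. These microRNAs in turn target ZEB1 mRNA, so both repress each other in a feedback loop that separates epithelial from mesenchymal states. MIR200B, MIR200A and MIR429 form 1 of the miR-200 clusters and lie on chromosome 1.

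The microRNAs of this cluster are shown because the edit was aimed upstream of their genes. The mature sequences are RefSeq entries of the build GRCh38.p14, written 5′ to 3′, and capitals mark the seed (bases 2 to 8).
hsa-miR-200b-3p: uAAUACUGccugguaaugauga
hsa-miR-429: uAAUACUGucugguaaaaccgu
hsa-miR-200a-3p: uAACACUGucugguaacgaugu
The seeds of hsa-miR-200b-3p and hsa-miR-429 are identical, and that of hsa-miR-200a-3p differs from them in 1 base.

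The RefSeq promoter of MIR200BHG, the annotated host transcript of the cluster, is shown as the nearest such sequence in the tables used here. It covers 250 bases before to 50 after the gene start, at chr1:1162627-1162926 on the + strand of GRCh38.p14. Capitals mark CACCTG, the E-box that ZEB1 is known to bind, which was searched on both strands (CACCTG and CAGGTG).
MIR200BHG promoter: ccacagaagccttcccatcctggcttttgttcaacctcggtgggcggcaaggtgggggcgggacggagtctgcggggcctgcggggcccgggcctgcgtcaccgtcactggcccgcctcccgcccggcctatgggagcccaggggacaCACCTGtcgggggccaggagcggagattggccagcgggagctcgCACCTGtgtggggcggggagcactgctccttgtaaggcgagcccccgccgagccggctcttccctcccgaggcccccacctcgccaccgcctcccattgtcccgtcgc
This window held 2 matches, and 3.49% of the 35116 promoters in the table held at least as many, while 20.6% held at least 1. The peaks below are in hg19 coordinates, counted from 1, and cannot be placed against GRCh38.p14 positions. Peaks are therefore named by position, and their place relative to genes was not analysed here.

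The strongest ZEB1 peak held by the WT clone alone stood at chr1:1058493-1060002. Its fold enrichment, the authors' linear ratio of the signal at the summit over the peak caller's background, was 45.7. That was 2.79 times the fold of the next strongest peak held by the WT clone alone. The peaks of unmodified MiaPaCa2 and RKO cells at this place had summits at -15 and -6 bp from the WT clone summit, so the 3 lists placed the summit at nearly the same base. Their widths were 1759 bp in MiaPaCa2, 2374 bp in RKO and 1510 bp in the WT clone. The labels do not give the interval changed by the edit. Whether the delta-Repeat clone still has the DNA under this peak is therefore not known.

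The surroundings also held fewer peaks in the delta-Repeat clone. Within 100 kb of that summit the WT clone had 5 ZEB1 peaks, the delta-Repeat clone 1, unmodified MiaPaCa2 13 and RKO 23. The counts other than that of the delta-Repeat clone include the peak at the centre, which was chosen because the delta-Repeat clone lacks it. The single delta-Repeat clone peak had its summit at -56.1 kb (a minus sign means to the left) and a fold of 6.42. Its percentile by fold within its own list was 38.8 (100 is the strongest). The overlapping WT clone peak had a fold of 9.56 and a percentile of 71.5. The other WT clone peaks without a counterpart lay at -78.4 kb (fold 5.46), -59.7 kb (fold 6.83) and 52.7 kb (fold 14.6). Each of these 3 places also carried a peak in MiaPaCa2 and in RKO. The peak to the right lay 52.7 kb from the WT clone summit in all 3 lists that had it. Its fold was 14.6 in the WT clone, 11.1 in MiaPaCa2 and 12.6 in RKO. Within their own lists these folds stood at percentiles 88.5, 85.0 and 92.2. The nearest CTCF peak of unmodified MiaPaCa2 cells had its summit at -1669 bp.

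**Figure D1:**
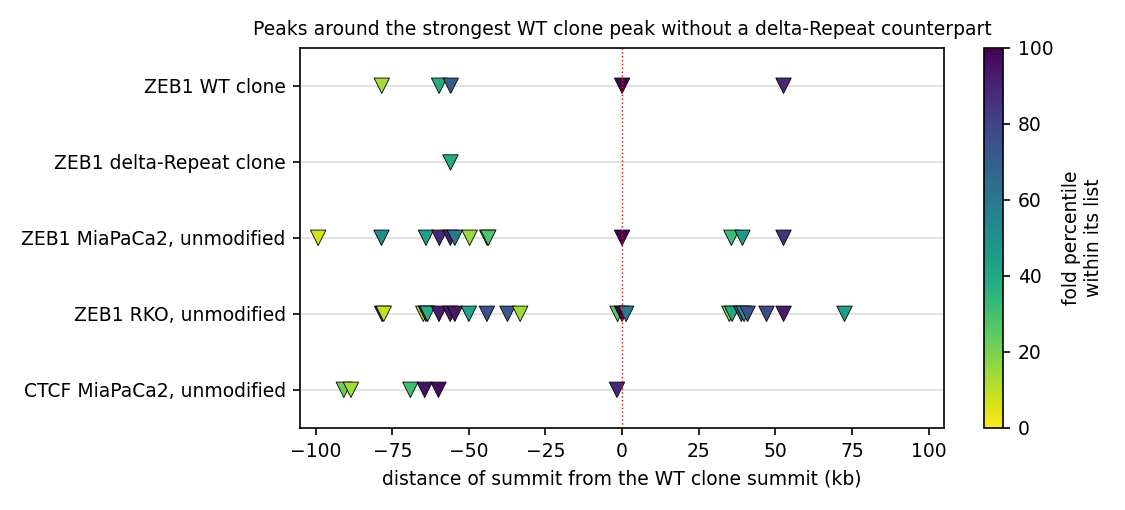
Summits of all peaks within 100 kb of the strongest WT clone peak without a delta-Repeat clone counterpart, 1 row per list. The x axis is the distance from the WT clone summit in kb, and colour is the percentile of a peak's fold within its own list (100 is the strongest). The WT clone, MiaPaCa2 and RKO rows have a peak at distance 0, and the delta-Repeat clone row has 1 peak in all.

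Among the strongest ZEB1 sites of unmodified MiaPaCa2 cells, absence from a clone list was rare. Of its 200 strongest peaks, 198 were in both clone lists (99.0%, exact Clopper-Pearson 95% interval 96.4 to 99.9, counting error only). The other 2 were WT clone peaks with no delta-Repeat clone counterpart. They were the peak on chromosome 1 just described and chr7:5601644-5603309, which had rank 195 and a fold of 21.0 in MiaPaCa2. The WT clone peak there had a fold of 10.0 and rank 389 of 1515, and the nearest delta-Repeat clone peak was 66887 bp away. Among the 500 strongest MiaPaCa2 peaks 471 were in both clones (94.2%, 91.8 to 96.1), 10 in the WT clone alone, 13 in the delta-Repeat clone alone and 6 in neither. The strongest MiaPaCa2 peak found only in the delta-Repeat clone was chr20:61935940-61936408 (fold 19.3, rank 228). It had a delta-Repeat clone fold of 7.25, and the nearest WT clone peak lay 658 bp away. The strongest that both clones lacked was chr6:3094299-3094745 (fold 18.6, rank 254), and chr6:3090537-3091142 (fold 14.5, rank 436) close to it was also in neither clone.

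Peaks held by 1 clone numbered 403 in the WT clone (26.6% of its list) and 1052 in the delta-Repeat clone (48.7%). With both lists cut to the same number of strongest peaks they were 35.1% and 35.7%, which must lie close together because shared peaks pair almost 1 to 1. When a match required summits within 100 bp, they were 45.3% and 61.7%. The unmatched peaks were mostly weak. The median fold was 6.30 in the WT clone, against 8.18 for its shared peaks, and 6.06 against 8.93 in the delta-Repeat clone. A −log10 q under 5 was found for 20.6% of the peaks held by the WT clone alone and 6.83% of its shared peaks, and for 19.3% and 3.34% in the delta-Repeat clone. Of the peaks held by 1 clone, 13 (WT) and 48 (delta-Repeat) belonged to the strongest of 4 equal classes of their list. Few were near misses. A peak of the other clone lay within 1 kb of 28 of the 403 and 75 of the 1052, and the median distance to the nearest was 163569 bp and 390561 bp.

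Most sites held by 1 clone existed in the unmodified cells. Of the peaks held by the WT clone alone 85.9% (82.1 to 89.1) overlapped a MiaPaCa2 ZEB1 peak, and of its shared peaks 98.6% (97.7 to 99.2) did. For the delta-Repeat clone these shares were 74.0% (71.2 to 76.6) and 98.6% (97.8 to 99.2). The RKO list contained 56.3% (51.3 to 61.2) of the peaks held by the WT clone alone and 56.7% (53.7 to 59.8) of those held by the delta-Repeat clone alone, against 84.2% and 84.7% of the shared peaks. A CTCF peak of MiaPaCa2 was overlapped by 17.9% (14.2 to 22.0) and 22.9% (20.4 to 25.6) of the peaks held by 1 clone, and by 21.3% (18.9 to 23.8) and 22.6% (20.1 to 25.1) of the shared ones. The intervals for CTCF overlapped within each clone.

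The 10 strongest peaks held by each clone alone were all in the MiaPaCa2 list. In the WT clone the order after the chromosome 1 peak was chr2:120996939-120997464 (fold 16.4), chr1:1111748-1112131 (fold 14.6) and chr7:158057856-158058313 (fold 13.4). The remaining 6 had folds from 10.5 to 12.0 and lay on chromosomes 1, 9 and 10. MiaPaCa2 ranked the site on chromosome 2 at 435, the second site on chromosome 1 at 721 and the site on chromosome 7 at 511. In the delta-Repeat clone the strongest were chr2:238498706-238500028 (fold 18.0), chr13:95365369-95365819 (fold 16.1) and chr9:100565464-100565799 (fold 15.1), with MiaPaCa2 ranks of 667, 1151 and 589. On chromosome 13 the nearest WT clone peak was 14551327 bp away. Peaks of 1 clone that neither MiaPaCa2 nor RKO had were weaker. There were 37 in the WT clone, led by chrX:71684334-71684695 (fold 10.0, rank 397), and 167 in the delta-Repeat clone, led by chr17:46343056-46343468 (fold 9.18, rank 576). No list of unmodified cells had either.

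At shared peaks the order of strength was alike but loose in both clones. The overlaps gave 1092 pairs of 1 WT clone and 1 delta-Repeat clone peak, each the other's largest overlap. Folds were ranked within each list over these pairs only, so that both ranks run from 1 (strongest) to 1092, and were also written as percentiles with 100 as the strongest. Spearman's rho of the folds was 0.66 across the 1092 pairs. This is a correlation across peaks of 2 libraries, and peaks are not replicates. The median absolute difference was 14.0 percentile points (95% interval of the median from order statistics, 12.7 to 15.1). In the strongest of 4 equal classes by mean percentile it was 5.13 points (4.40 to 6.23), in the next classes 19.0 and 24.4, and in the weakest 12.5. The classes were cut on the mean of both percentiles, so the scale's ends limit how far the outer classes can move, and their smaller differences follow in part from this choice. By each clone's own order, the 10 strongest pairs had 6 in common, the 20 strongest 11, the 50 strongest 37, the 100 strongest 66 and the 200 strongest 134.

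The 20 strongest pairs by mean percentile are given as a description, since a high mean leaves little room for a move. The strongest, chr16:90097581-90099869 in the WT clone, ranked first in both, with folds of 81.2 and 78.2 and the delta-Repeat clone summit at -6 bp from that of the WT clone. The peak chr22:45126754-45127594 had rank 3 in the WT clone (fold 52.4) and rank 31 in the delta-Repeat clone (fold 31.0). In the opposite direction chr5:68788029-68789118 had rank 8 in the WT clone list (fold 41.5) and rank 2 in the other (fold 57.5). Of these 20 pairs, 19 were also in the MiaPaCa2 and 19 in the RKO list, and 3 overlapped a CTCF peak. The exception was chrX:77359211-77359964, with WT clone rank 2 (fold 72.1) and delta-Repeat clone rank 9 (fold 39.4). The peak chr15:68132259-68132754, likewise without a MiaPaCa2 peak, had pair rank 26 for the WT clone but 364 in the other list. These were 2 of 16 pairs, among all 1092, that the MiaPaCa2 list lacked. Both clones had received plasmids, and whether plasmid DNA added reads at these 2 peaks was not tested.

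A move of at least 20 percentile points was found for 198 pairs ranked higher in the WT clone (18.1%) and 199 ranked higher in the delta-Repeat clone (18.2%). The largest move towards the WT clone was at chr10:43760548-43761125, whose rank among pairs was 178 in the WT clone (fold 14.1) but 1041 in the delta-Repeat clone (fold 5.20). It was followed by chr12:133137282-133137974 (ranks 138 and 981), chr1:151566597-151567025 (242 and 1020) and chr1:16471663-16472158 (319 and 1049). The largest move towards the delta-Repeat clone was at chr2:8825000-8825199, with ranks of 1043 in the WT clone (fold 5.01) but 216 in the delta-Repeat clone (fold 14.7). Next came chr6:53658717-53659219 (ranks 1074 and 254), chr14:77278834-77279033 (1086 and 277) and chr8:61565600-61566152 (1075 and 270). All 20 pairs with the largest moves, 10 in each direction, were in the MiaPaCa2 list. That sets them apart little, since only 16 of all 1092 pairs were absent from it.

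**Figure D2:**
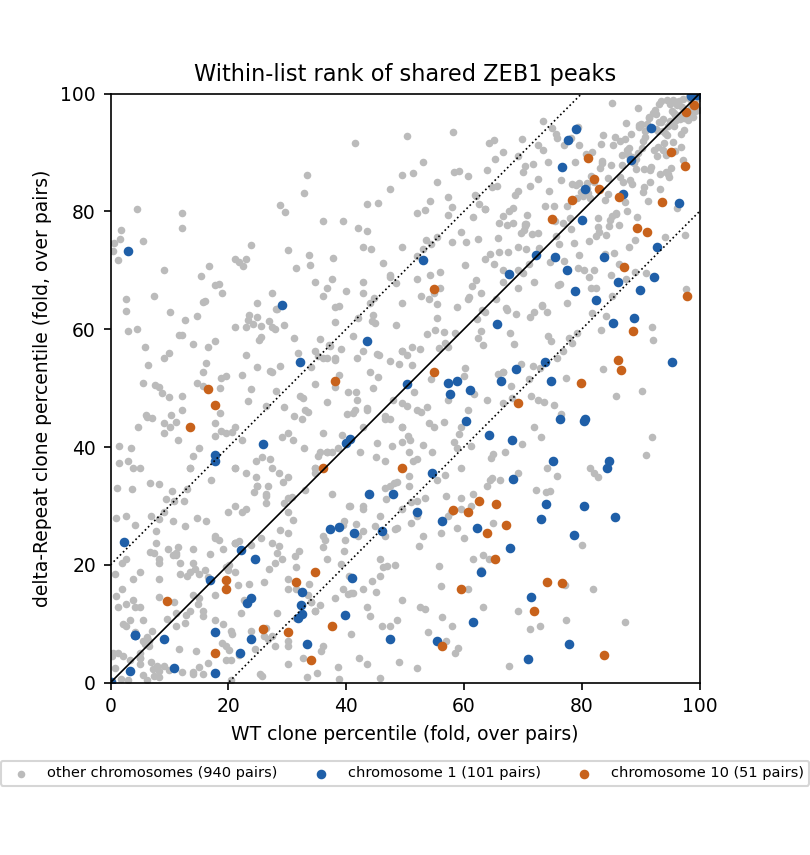
Percentile of the fold for WT clone peaks (x axis) against delta-Repeat clone peaks (y axis) for the 1092 pairs, ranked over the pairs within each list. The solid line marks equal percentiles and the dotted lines mark differences of 20 points. Pairs of chromosomes 1 and 10 lie mostly below the solid line (113 of 152).

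Shared peaks on chromosomes 1 and 10 ranked lower in the delta-Repeat clone than in the WT clone. The median of WT minus delta-Repeat clone percentile was 15.5 points (9.57 to 18.7) over the 101 pairs of chromosome 1, and 74 of them ranked higher in the WT clone. On chromosome 10 it was 14.7 points (5.08 to 28.9), with 39 of 51 pairs higher in the WT clone. The medians of the other 21 chromosomes ran from -8.52 to 6.14, none had an interval above 0, and 3 (chromosomes 3, 4 and 12) had one below 0. These intervals take peaks as independent and cover the sampling of peaks, not of clones. Since ranks are relative, a shift on some chromosomes requires an opposite shift elsewhere, and over the 940 pairs of the other chromosomes the median was -1.67 (-2.93 to -0.73).

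Moves of at least 20 points towards the WT clone made up 36.6% (27.3 to 46.8) of the pairs on chromosome 1 and 43.1% (29.3 to 57.8) on chromosome 10, against the 18.1% over all pairs. Towards the delta-Repeat clone they made up 4.95% (1.63 to 11.2) and 5.88% (1.23 to 16.2), against 18.2%. Chromosomes 1 and 10 were singled out by these same values, so a split by class is no separate evidence of the shift. Its median over both chromosomes was above 0 in each class of strength. It was 9.64 in the weakest class and 23.2 and 25.3 in the middle classes. In the strongest class it was 5.08, and the interval (-0.09 to 14.7) included 0. With percentiles taken over the whole lists, the medians were 3.70 (-0.09 to 8.70) on chromosome 1 and 6.13 (0.24 to 14.3) on chromosome 10, where all pairs had a median of -5.56. With only peaks of fold 5 or more and −log10 q of 10 or more, they were 11.0 (4.80 to 19.2) and 18.4 (-0.60 to 27.1). The interval thus included 0 for chromosome 1 in the former setting and for chromosome 10 in the latter.

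The missing peak lies near the start of chromosome 1, and the pairs there are given by stretches whose limits were chosen after the values were seen. In the first 3 Mb 10 of 11 pairs ranked higher in the WT clone, with a median of 44.1 points (1.65 to 53.6). From 3 to 10 Mb 6 of 10 did, with a median of 13.8 (-14.4 to 24.2). From 10 to 50 Mb 16 of 18 did, with a median of 22.8 (11.4 to 39.9). Over the first 10 Mb together 16 of 21 pairs ranked higher in the WT clone, with a median of 23.1 (1.65 to 44.1), the same as over the first 50 Mb (23.1, 15.1 to 35.9). The peak chr1:1710295-1710721 had rank 158 among pairs in the WT clone (fold 15.0) and 786 in the delta-Repeat clone (fold 7.20). For chr1:1244503-1245253 the ranks were 233 and 818, and for chr1:856582-857105 they were 215 and 763. The exception in the first 3 Mb was chr1:1207828-1208213, with ranks of 893 and 670. Without the first 10 Mb the median of chromosome 1 was 12.3 (7.51 to 17.0) over 80 pairs, so the shift was not limited to that end. By blocks of 50 Mb the medians were 23.1, -0.09, 16.4, 6.96 and 13.7, from 39, 13, 5, 20 and 24 pairs. Their intervals were 15.1 to 35.9, -14.4 to 31.6, none for the 5 pairs, -1.10 to 16.0 and 3.43 to 19.1. On chromosome 10 the same blocks gave 29.0 (-3.39 to 57.1), 12.6 (0.82 to 31.7) and 15.9 (2.11 to 28.0) from 9, 19 and 23 pairs.

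**Figure D3:**
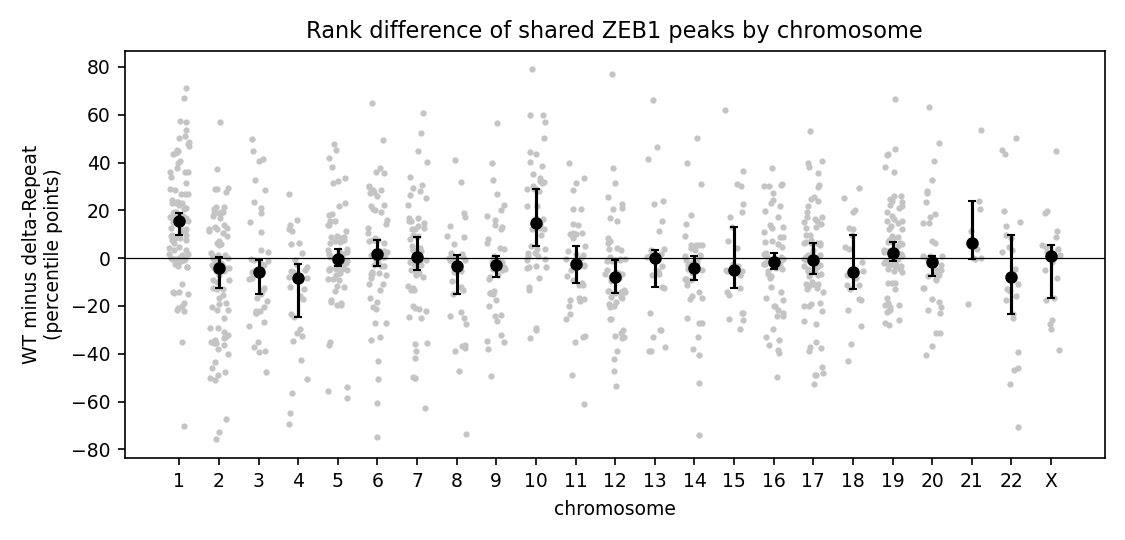
Difference in percentile (WT minus delta-Repeat clone, y axis, in points) for every pair, by chromosome. Grey points are pairs, black points are medians and bars are 95% order-statistic intervals. Chromosomes 1 and 10 have medians of 15.5 and 14.7 and intervals above 0, which the other 21 do not have.

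The list of unmodified MiaPaCa2 cells served as a further ranking. It covered 1059 sites, which were pairs whose WT and delta-Repeat clone peaks matched the same MiaPaCa2 peak by reciprocal largest overlap. On chromosome 1 the WT clone stood 2.60 points above MiaPaCa2 (median, -0.19 to 7.65), and 58 of 98 sites were higher. There the median of the delta-Repeat clone minus MiaPaCa2 was -8.12 points (-15.6 to -2.46), and 32 of 98 sites were higher than in MiaPaCa2. On chromosome 10 the WT clone differed by 1.84 points (-1.75 to 6.42, 30 of 49 higher) and the delta-Repeat clone by -10.2 points (-14.7 to -2.17, 14 of 49 higher). Over the 912 sites of the other chromosomes the medians were -0.24 (-1.18 to 0.66) and 1.61 (0.47 to 2.74). Both sets of values use the same MiaPaCa2 list and are given side by side.

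Sites held by 1 clone followed the same chromosomes. When overlapping peaks of both clones were joined, 2547 sites resulted, of which 1092 were in both. Chromosome 1 had 70 sites of only the WT clone against 55 of only the delta-Repeat clone, and chromosome 10 had 48 against 17. As peaks these were 70 of 171 and 55 of 160 on chromosome 1, and 48 of 101 and 17 of 70 on chromosome 10. Over all chromosomes they were 403 of 1515 and 1052 of 2160. Both chromosomes were singled out by ranks in the same 2 lists, so these counts are no separate evidence of the shift. On each of the other 21 chromosomes the delta-Repeat clone had more sites without a counterpart, with the largest gap in number on chromosome 2 (23 and 130) and the smallest on chromosome 13 (6 and 15). In the first 10 Mb of chromosome 1 the counts were 16 (WT) and 3 (delta-Repeat).

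**Figure D4:**
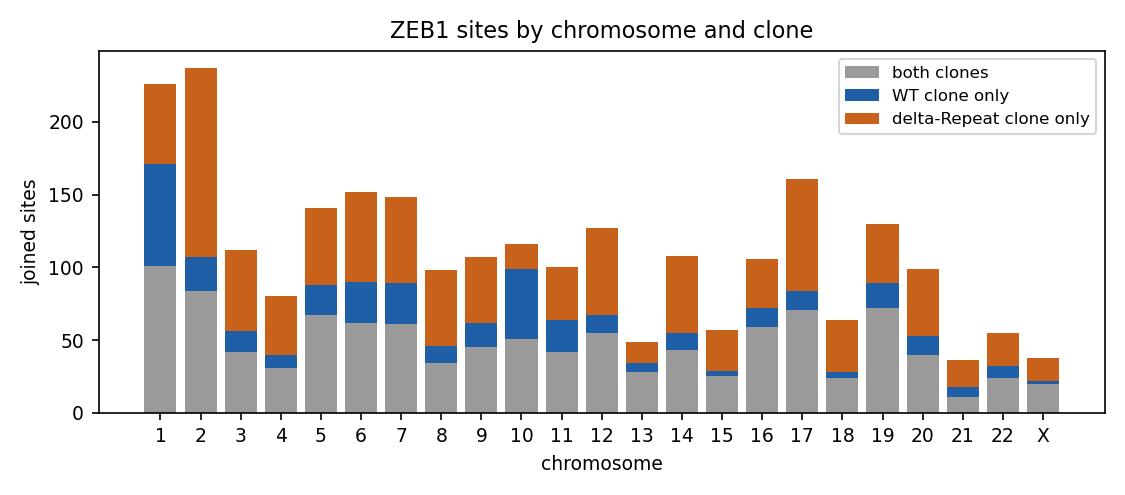
Joined ZEB1 sites by chromosome, stacked as sites of both clones, of only the WT clone and of only the delta-Repeat clone. On chromosomes 1 (70 against 55) and 10 (48 against 17) the WT clone has more unmatched sites, and on all others the delta-Repeat clone does.

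Neighbouring unmatched sites were counted along the chromosomes. Of all joined sites 41.3% were in the delta-Repeat clone only and 15.8% in the WT clone only, so runs of the former are more frequent for that reason alone, and whether they exceed what these shares give was not tested. Taken in chromosome order, 31 runs of at least 5 neighbouring sites were found in the delta-Repeat clone only, and they held 195 of its 1052 unmatched sites on 17 chromosomes. The longest had 11 sites at chr2:27273140-43864241, followed by 10 sites at chr14:57045984-62004685. The densest of the runs of at least 8 sites lay at chr17:27052841-28618552, with 8 sites in 1.57 Mb. Chromosomes 1 and 10 had none of these runs. The WT clone had no run of 5, and its longest, of 4 sites each, were at chr6:71666135-74230600 and chr11:64125354-65236540. When only peaks with a fold of 5 or more and a −log10 q of 10 or more were kept, the 31 runs became 10. By windows of 10 Mb, 28 held at least 5 unmatched sites that were all from the delta-Repeat clone, and 2 held as many that were all from the WT clone. The 2 were chromosome 10 from 100 to 110 Mb (8 sites, beside 7 shared) and chromosome 7 from 150 to 160 Mb (8 sites, beside 8 shared). Over the whole of chromosome 7 the delta-Repeat clone had more unmatched sites, 59 against 28.

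Within shared peaks the summits lay close together and moved to neither side. The median absolute distance between the summits of a pair was 49.5 bp (44 to 54), and 50.7% of pairs (47.7 to 53.7) had summits within 50 bp. The delta-Repeat clone summit was to the right in 547 pairs, to the left in 538 and on the same base in 7. Stronger pairs had closer summits, with medians of 65, 60, 42 and 32 bp from the weakest to the strongest class. Summits over 100 bp apart were found in 273 pairs (25%), and 8 pairs had summits at least 500 bp apart. The largest distances, as delta-Repeat minus WT clone summit, were 822 bp at chr6:53516214-53516751, -701 bp at chr10:31607179-31607990, 670 bp at chr10:1613626-1614074, -637 bp at chr4:616041-617217 and -634 bp at chr10:135073296-135074811. All but the pair on chromosome 4 belonged to a peak that overlapped 2 peaks of the other clone. On chromosome 4 both peaks were over 1 kb wide (1177 and 1297 bp) and strong (folds of 28.9 and 20.4).

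Shared peaks were wider in the delta-Repeat clone. The median width was 382 bp (370 to 397) for WT clone peaks against 448 bp (430 to 466) for delta-Repeat clone peaks, and the median ratio within pairs was 1.12 (1.10 to 1.16). The delta-Repeat clone had the wider peak in 705 of 1092 pairs (64.6%). It was over 1.5-fold wider in 209 pairs (19.1%), and the WT clone peak was over 1.5-fold wider in 80 (7.33%). The ratio was much the same in all 4 classes of strength, between 1.10 and 1.16. Called width can vary with read depth and with the control, neither of which is known here for the clones, and their part in this was not tested.

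Width moved with rank. Pairs ranked at least 20 points higher in the WT clone had a median ratio of 0.87 (0.82 to 0.94), and those ranked at least 20 points higher in the delta-Repeat clone had 1.40 (1.29 to 1.47). Fold and width of a peak come from the same reads, so this is no separate evidence of a change. On chromosome 1 the median ratio was 0.92 (0.85 to 0.98) and on chromosome 10 it was 0.93 (0.85 to 1.03), while the other 21 chromosomes had medians from 0.95 to 1.31. In the first 3 Mb of chromosome 1 the WT clone peak was the wider in 10 of 11 pairs, with a median ratio of 0.72. The pairs with the largest excess of WT clone width included chr1:120254301-120254929 (629 against 200 bp), chr1:1276083-1276765 (683 against 222 bp) and chr10:43760548-43761125 (578 against 217 bp). Also among them was chr15:22434153-22435095 (943 against 371 bp), although its WT minus delta-Repeat clone percentile was -29.9 points. The pairs with the largest excess of delta-Repeat clone width were chr16:89767237-89767440 (204 against 854 bp), chr15:91478234-91478433 (200 against 810 bp) and chrX:15808117-15808376 (260 against 1049 bp).

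**Figure D5:**
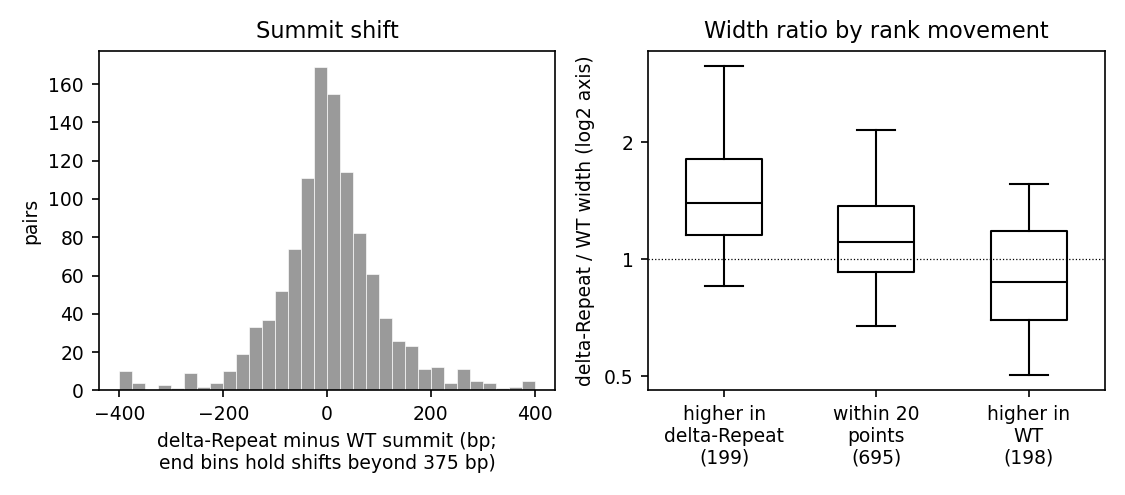
Left, number of pairs (y axis) by delta-Repeat minus WT clone summit in bp, with far shifts gathered in the end bins; right, ratio of delta-Repeat to WT clone width (log axis) for the 199 pairs ranked at least 20 points higher in the delta-Repeat clone, the 695 within 20 points and the 198 higher in the WT clone, as boxes of the middle 50% with the median and whiskers from the 5th to the 95th percentile. Summit shifts centre on a median of 1 bp, and the median width ratios are 1.40, 1.11 and 0.87.

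Few peaks were whole in 1 clone and divided in the other. A WT clone peak overlapped 2 delta-Repeat clone peaks in 16 cases (median width 772 bp), and a delta-Repeat clone peak overlapped at least 2 WT clone peaks in 19 (median width 1106 bp). Among the former was chr10:135073296-135074811, a peak of 1516 bp with a WT clone fold of 31.5, where the stronger of the 2 delta-Repeat clone peaks had a fold of 12.4. Among the latter were chr20:18037980-18040040, at 2061 bp and a delta-Repeat clone fold of 22.0, and chr8:61564995-61566661, at 1667 bp, which covered 3 WT clone peaks. The chromosome 8 site is also among the largest moves in rank given above. Only 1 of its 3 WT clone peaks entered the pair, and the strongest of the 3 had a fold of 5.65, against 13.1 in the delta-Repeat clone. These examples were chosen after their values were seen. Their folds come from 2 libraries of unknown depth and control, so the folds of the 2 clones are not on a common scale.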

How the data were processed

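ZEB1 ChIP-seq peak lists of the WT and delta-Repeat clones were compared, 1 library each. Bowtie2 2.2.6, SAMtools and MACS2 2.1.0.20150731 are named in the submitters' processing notes, as are the builds GRCh37 and hg19. For the control of each list, pooling, filters and read depth, the sources used here give nothing. The deposited fold is the ratio over background written by the authors' peak caller, and the deposited −log10 q and −log10 p are from the same caller. The deposited score column (10 times −log10 q) was not used. Folds depend on depth and control, so they were ranked only within a list.

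Overlaps of at least 1 bp, reciprocal largest-overlap pairs, ranks, widths and summits were computed with Python 3.11.15, numpy 2.4.6, pandas 2.3.3 and scipy 1.17.1, tested on simulated lists, and drawn with matplotlib 3.10.9. Shares carry exact Clopper-Pearson and medians order-statistic 95% intervals, which take neighbouring peaks as independent and do not measure the spread between clones.

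Named sites were the strongest peaks of each clone alone, the pairs with the largest differences in rank, summit or width, the 20 strongest pairs, the strongest MiaPaCa2 peaks missing from a clone, runs of sites, and peaks within 100 kb of the strongest WT clone peak without a counterpart. Other sites, the 3 Mb and 10 Mb limits and the 50 Mb blocks were chosen after values were seen. The members and lists were chosen with earlier results of these data known. Genes and motifs at peaks were planned and not run, since no hg19 sequence or annotation was used here.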

Additional observations from a re-analysis of the deposited data

How the results depend on the processing

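No paired analysis was possible because each clone has 1 library. Under the settings chosen beforehand 15 values moved beyond the interval or limit set for them and 32 did not. A change of direction was looked for only in the rank differences on chromosomes 1 and 10, and 0 were found. The WT clone share of unmatched peaks was 37.4% with an overlap of 50% of both peaks, 45.3% with summits within 100 bp and 35.1% with lists of equal length. That of the delta-Repeat clone was 44.2% with the stricter threshold (fold 5, −log10 q 10) and 56.1%, 61.7% and 35.7% under the same 3 settings; equal length brings both shares together by construction. The median rank difference was 12.6 points with summits within 100 bp. The median summit distance was 39 bp (stricter threshold), 43 bp (50% overlap) and 34 bp (summits within 100 bp, which limits it by construction), and the width ratio was 1.09 with 50% overlap. Ranked within whole lists, chromosome 1 gave 3.70 points (-0.09 to 8.70), an interval that includes 0, and chromosome 10 gave 6.13 (0.24 to 14.3, against 14.7 as reported), beside -5.56 for all pairs. With the stricter threshold the interval of chromosome 10 (-0.60 to 27.1, 25 pairs) included 0. The share in both clones was 94.2% for the 500 strongest MiaPaCa2 peaks, and the stricter threshold left 10 runs. Of the 3 values under alternatives added after the data were seen (leaving out the first 10 Mb of chromosome 1, and keeping only MiaPaCa2 sites), each stayed within the reported interval. Unknown depth and the unknown edited interval limit what a missing peak shows.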
